A study of Mus musculus with 12 samples.

Results

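The genes described here are 10 mouse genes that are known targets of serum response factor (SRF) or encode SRF itself: 5 actin genes (Actb, Actg1, Acta1, Acta2 and Actg2), 4 genes of the contractile apparatus (Tagln, Cnn1, Myl9 and Tpm1) and Srf. They were chosen by name and found by their Ensembl gene identifiers, 10 of 37583 genes counted in every library. RNA-seq was done on 12 libraries of Ocy454 cells, an osteocyte line derived from mouse long bone, in 4 groups of 3 replicates. Control cells, called original cells in the labels, and DKO cells, labelled as carrying a deletion of HDAC4 and of HDAC5, were cultured without flow (static) or under FFSS, fluid flow shear stress, and every library has the time point 3 h. All cells carry the temperature-sensitive T antigen of the line, descend from a single-cell sub-clone and were moved before the experiment to a higher temperature, at which the T antigen is inactive. The study's methods describe gene deletion by lentiviral Cas9 and guide RNAs under drug selection, with some populations expanded from single cells. Control cells there received an empty guide RNA virus. How the line lacking HDAC4 and HDAC5 was made is not said there, nor whether the control cells used here received that virus. According to the same methods, FFSS was made by orbital rotation of the culture plate. The labels do not say whether the replicates were separate cultures, so p-values measure the spread between these libraries, which may be technical. Since the control libraries are 1 line and the DKO libraries another, the deletion and the line cannot be told apart.

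SRF is a transcription factor that binds the CArG box. Its activity on contractile genes depends on the myocardin-related cofactors MRTF-A and MRTF-B (genes Mkl1 and Mkl2), which are held in the cytoplasm by monomeric actin and enter the nucleus when actin polymerises. A separate set of cofactors, the ternary complex factors Elk1, Elk3 and Elk4, directs SRF to immediate early genes. Srf and several actin genes are themselves SRF targets. Class IIa histone deacetylases such as HDAC4 and HDAC5 are best known as repressors of MEF2 factors. In the osteocyte, the actin cytoskeleton links adhesion sites to the dendritic processes on which fluid shear acts.

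Promoter sequences from RefSeq, each 250 bases before to 50 bases after the start of transcription, were on hand for 7 of the 10 genes (Acta1, Acta2, Actg1, Cnn1, Myl9, Srf and Tpm1). An exact CArG box (CC, then only A or T, then GG) was found in 4 of these 7, compared with 1.63% of 32851 RefSeq promoters (build GRCm38.p6). This pattern is the same on both strands, although the letters of a single box need not be. The Srf promoter held 2, beginning 82 and 62 bases before the start, and only 0.0183% of all promoters held 2 or more. The members were chosen as known SRF targets, so the choice itself favours a share above that of all promoters. In Acta1 the box began 73 bases before the start, in Actg1 90 bases and in Myl9 161 bases before it. No exact match was in the windows of Acta2, Tpm1 and Cnn1, which says only that these letters are not in those 300 bases. The stretches with a box and 30 bases to either side are shown because this is the sequence that SRF binds, and 4 members have it within the 250 bases before their start. These stretches were placed on NCBIM37 (mm9), the build of the counts, by exact match, and capitals mark the box.
Srf, chr17:46693134-46693223, minus strand: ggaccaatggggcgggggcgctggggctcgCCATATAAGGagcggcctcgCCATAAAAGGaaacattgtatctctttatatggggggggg
Acta1, chr8:126418709-126418778, minus strand: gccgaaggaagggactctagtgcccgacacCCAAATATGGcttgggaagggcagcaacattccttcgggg
Actg1, chr11:120209860-120209929, minus strand: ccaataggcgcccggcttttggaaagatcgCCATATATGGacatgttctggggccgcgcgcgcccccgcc
Myl9, chr2:156601009-156601078, plus strand: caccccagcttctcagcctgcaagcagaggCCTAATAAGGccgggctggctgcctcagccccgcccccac

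Libraries held 17.6 to 19.2 M reads assigned to genes, and 1 library stood apart. Control FFSS replicate 1 differed from the other 2 control FFSS libraries by a chi-square of 68.7 and 62.5 per degree of freedom over all genes, whereas all other pairs within a group lay between 2.1 and 6.9. Its share of uniquely aligned reads outside annotated genes was 6.05%, against 9.45% and 10.3% in replicates 2 and 3, 5.25% to 5.36% in control static, 7.27% to 7.35% in DKO static and 8.16% to 8.8% in DKO FFSS. The main comparisons that rest on the control FFSS group are therefore given with and without it. Transcripts of both targeted genes were still counted in the DKO libraries. Hdac5 averaged 84.5 ± 5.53 CPM in DKO static (SD, n = 3) against 133 ± 7.04 in control static, but 92.8 ± 0.457 in DKO FFSS against 81.2 ± 9.57 in control FFSS. The annotation splits Hdac4 into 2 gene identifiers, and both were lower in DKO cells in each condition, by 0.39 to 1.48 on the log2 scale. How this DKO line was made is not described in the study's methods, and small edits such as those of Cas9 need not lower the number of transcripts. These counts therefore do not check the deletion.

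Levels are given as CPM, the counts of a gene scaled to a library of 1 M gene-assigned reads after TMM scaling, which evens out differences in composition between libraries. A gene passed the test when its Benjamini-Hochberg adjusted p from edgeR's quasi-likelihood test, over 14904 genes, was under 0.05. Of the 10 genes, 9 entered the test, and Cnn1, with 0 counts in 4 libraries, did not.

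Per kilobase of exon, the levels of the 10 genes spanned several orders of magnitude. The length used is that of all annotated exon bases of a gene together. For Tpm1 these are 6485 bases, while its longest coding transcript has 2890. Its level per kb, and with it its place in the order of each group, depends on which length is used. In control static cells Actb, the cytoplasmic β-actin found in nearly all cells, was the highest at 1217 ± 16.6 CPM per kb (SD, n = 3). Acta2 (smooth muscle α-actin) followed at 199 ± 13 CPM per kb, then the regulatory myosin light chain gene Myl9 at 144 ± 0.678 and the tropomyosin gene Tpm1 at 127 ± 0.558. Tagln, which encodes the actin-bundling protein transgelin (SM22α), stood at 50.9 ± 1.6 CPM per kb and Srf at 39.5 ± 1.75. Acta1 (skeletal muscle α-actin) had 10.1 ± 1.07 CPM per kb and Actg2 (smooth muscle γ-actin) 2.87 ± 0.124. Neighbours in this order differed by more than the sum of their SDs, which does not cover the choice of length for Tpm1. In control FFSS the SDs were wide, and Acta2 (437 ± 210 CPM per kb), Myl9 (220 ± 77.8), Tagln (166 ± 90.4) and Tpm1 (165 ± 19.2) could not be ordered by this rule, nor could Actg2 (6.35 ± 3.27) and Actg1 (2.36 ± 1.34). In DKO static, Tpm1 at 54.3 ± 0.394 and Myl9 at 48.6 ± 5.4 lay close together, as did Acta1 (1.69 ± 0.335), Actg1 (1.51 ± 0.104) and Actg2 (1.26 ± 0.244). In DKO FFSS Acta2 (109 ± 4.47 CPM per kb) and Tpm1 (61.5 ± 4.14) stood apart from their neighbours, while Actg2 (1.74 ± 0.322) and Actg1 (1.31 ± 0.193) could not be ordered. The values of Actg1 are as counted and do not give its place in any of these orders, for the reason set out next.

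The level of Actg1, the cytoplasmic γ-actin, cannot be read from these files. Of the 1903 windows of 50 bases, the read length, in its longest coding transcript, 1840 (96.7%) occur exactly elsewhere in the genome, at 19 other places on the assembled chromosomes, so that most of its reads could not be assigned to 1 position. Its counts of 47 to 190 per library come from what remains. The share was 15.4% for Actb, 2.22% for Acta1 and 0.404% for Acta2, and no window of the other 6 genes occurred elsewhere. Tagln shares 65 exon bases with Pcsk7 on the opposite strand. The count tables are named as not stranded, so reads of the shared bases cannot be told apart, and Pcsk7 had 826 to 1256 counts.

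**Figure D1:**
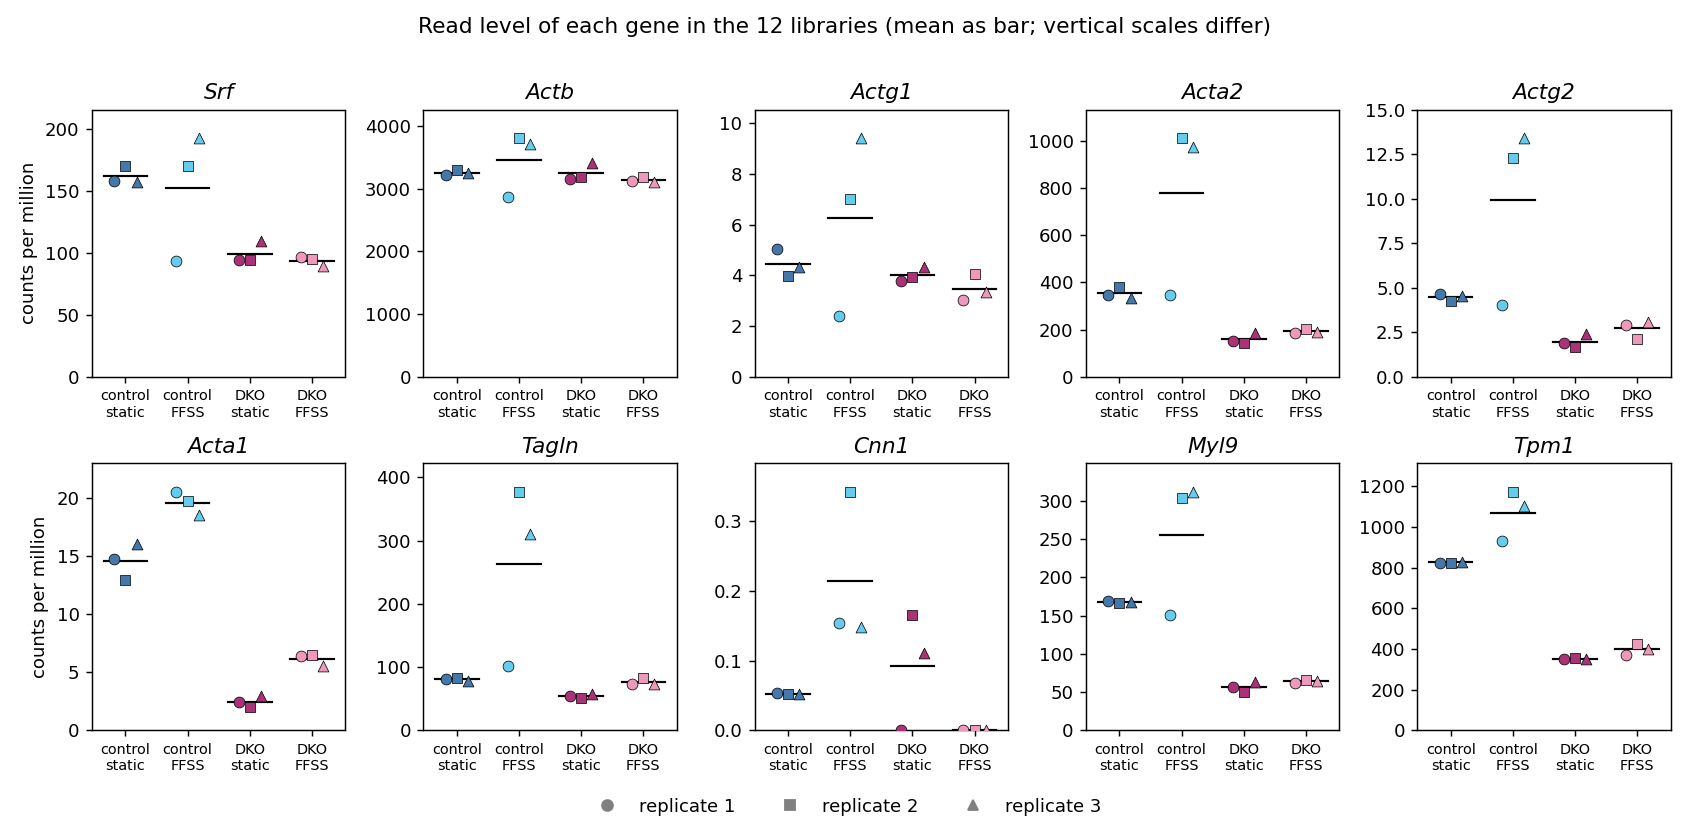
Level of each of the 10 genes in CPM (vertical axes, linear from 0 and different in each panel) in control static, control FFSS, DKO static and DKO FFSS libraries, with 1 point per library and a bar at the mean of 3. In 6 panels (Srf, Actb, Actg1, Acta2, Actg2 and Myl9) control FFSS replicate 1 lies below every control static library, or among them for Acta2, while replicates 2 and 3 lie at or above the control static libraries, and in the Acta1 panel the 3 control FFSS libraries lie together at 18.5 to 20.5 CPM.

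The comparison of FFSS with static culture in control cells asks how these genes respond to shear where Hdac4 and Hdac5 were not targeted. Acta1, Acta2, Actg2, Tagln and Tpm1 rose, by between 1.3-fold (Tpm1) and 3.26-fold (Tagln), and Actb, Actg1, Myl9 and Srf did not pass the test. Hence 5 of the 9 tested genes were higher and the other 4 did not pass, where 17.7% of all tested genes were higher and 18.1% lower by the same test. Acta2, Actg2 and Tagln also exceeded a 2-fold change, which 3.96% of all genes did upwards. Over the 9 genes the log2 fold change had a median of 0.51, compared with 0.01 over all tested genes. Without control FFSS replicate 1, all 9 passed with a higher level, against 26.7% of all genes. Leaving out control FFSS replicate 2 or 3, or any 1 control static library, left 2 or 3 members past the test, all higher. In these fits 1781 to 1884 of all genes were higher, of 14958 to 15038 tested. In the fit of the 6 control libraries, which also tested Cnn1, 2 of 10 passed with a higher level, against 7.2% of all genes. In that fit 0 members both passed and exceeded 2-fold, against 280 of 16166 genes upwards. With the share of reads outside genes as a covariate 1 was higher and 4 were lower, against 6.83% and 8.48% of all genes. The limit of that covariate is given further below.

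Srf itself, which lies on chromosome 17 (46683788 to 46693111), had 158, 170 and 157 CPM in control static and 93.6, 170 and 192 CPM in control FFSS. Control FFSS replicate 1 was thus within the range of the DKO libraries, and the other 2 libraries were at or above the static ones. The fitted log2 fold change was -0.09 ± 0.21 (SE, adjusted p = 0.77). Without that library it was 0.16 (adjusted p = 0.0298), with the opposite sign.

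Among the cytoplasmic actins, Actb (chromosome 5, 143664794 to 143668433) had 3219, 3307 and 3252 CPM in control static and 2877, 3805 and 3712 CPM in control FFSS. The first of the FFSS values is below all static values and the other 2 are above them. The log2 fold change of 0.09 ± 0.09 did not pass (adjusted p = 0.457), and it was 0.21 (adjusted p = 0.000316) without replicate 1. Actg1 (chromosome 11, 120207004 to 120209856) was counted 95, 76 and 82 times under static culture and 47, 144 and 190 times under FFSS, with a log2 fold change of 0.51 ± 0.35 (adjusted p = 0.282) that has to be read with the limit on its counting given above.

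The smooth muscle actins gave nearly the same pattern as each other. Acta2 (chromosome 19, 34315580 to 34329826) had 347, 380 and 335 CPM in control static and 346, 1011 and 976 CPM in control FFSS. Its level in replicate 1 was within the static range and the other 2 were more than 2-fold above it. The log2 fold change was 1.14 ± 0.33 (adjusted p = 0.0278), and 1.49 (adjusted p = 4.36e-11) without replicate 1. Actg2 (chromosome 6, 83462899 to 83486259) had 4.65, 4.27 and 4.53 CPM in control static, 4.06, 12.3 and 13.4 CPM in control FFSS, and a log2 fold change of 1.15 ± 0.35 (adjusted p = 0.0249), or 1.52 without replicate 1. These 2 calls did not hold when any single control static library, or control FFSS replicate 2 or 3, was left out (adjusted p = 0.0629 to 0.0945 for Acta2 and 0.0627 to 0.0956 for Actg2).

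Acta1 (chromosome 8, 126415669 to 126418651), the actin of the skeletal muscle sarcomere, behaved differently in the library that stood apart. It had 14.7, 12.9 and 16 CPM in control static and 20.5, 19.7 and 18.5 CPM in control FFSS, so that the groups did not overlap and replicate 1 was the highest. The log2 fold change was 0.43 ± 0.11 (adjusted p = 0.0111), and 0.39 (adjusted p = 0.00182) without replicate 1. It no longer passed without control static replicate 2 (0.35, adjusted p = 0.0598).

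Of the actin-binding genes, Tagln (chromosome 9, 45737711 to 45744141) showed the largest change of the 9. It had 81.7, 82.5 and 77.8 CPM in control static and 102, 377 and 310 CPM in control FFSS. All 3 FFSS libraries were above all static ones, although replicate 1 only by a small margin. The log2 fold change was 1.71 ± 0.38 (adjusted p = 0.0097), and 2.09 (adjusted p = 3.31e-18) without replicate 1. The call was lost in the fit of the 6 control libraries (1.71, adjusted p = 0.0643). Cnn1 (chromosome 9, 21903725 to 21914074), which encodes the smooth muscle protein calponin 1, was counted once in each static library and 3, 7 and 3 times under FFSS. These counts are too few for a fold change, and a count of 0 in a library, as in DKO cells, allows up to 3 counts. Such limits cover counting error only.

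Tpm1 (chromosome 9, 66870397 to 66897213) had 824, 822 and 829 CPM in control static and 930, 1172 and 1103 CPM in control FFSS, and the groups did not overlap. Its log2 fold change was small but well above the spread at 0.37 ± 0.08 (adjusted p = 0.00261), and 0.46 (adjusted p = 4.36e-09) without replicate 1. Myl9 (chromosome 2, 156601156 to 156607394), whose product is the light chain that myosin light chain kinase phosphorylates, had 169, 167 and 168 CPM in control static and 151, 304 and 312 CPM in control FFSS. Its log2 fold change of 0.61 ± 0.22 did not pass (adjusted p = 0.0579), and was 0.87 (adjusted p = 2.38e-13) without replicate 1. In all, 3 of the 9 genes (Acta1, Tagln and Tpm1) had control FFSS libraries that did not overlap the static ones, where 41.3% of all tested genes did.

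Set against the mean of the control static libraries, control FFSS replicate 1 had 3 of 9 genes above it, with log2 differences from -0.88 (Actg1) to 0.49 (Acta1) and a median of -0.14. Replicates 2 and 3 had 9 of 9 genes above it, with medians of 0.67 and 0.89. The share of reads outside annotated genes divided the control FFSS libraries in the same way, and it was also higher under FFSS than under static culture in either genotype. With that share as a covariate, the FFSS effect in control cells had the opposite sign for Acta2, Actb, Actg1, Actg2 and Myl9, and Actb (-0.23, adjusted p = 0.0332), Actg1 (-1.18, adjusted p = 0.00339) and Myl9 (-0.31, adjusted p = 0.0404) passed in this direction. Srf, at -0.94 (adjusted p = 4.37e-06), was then also lower under FFSS, and the calls of Tagln and Tpm1 were lost.

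**Figure D2:**
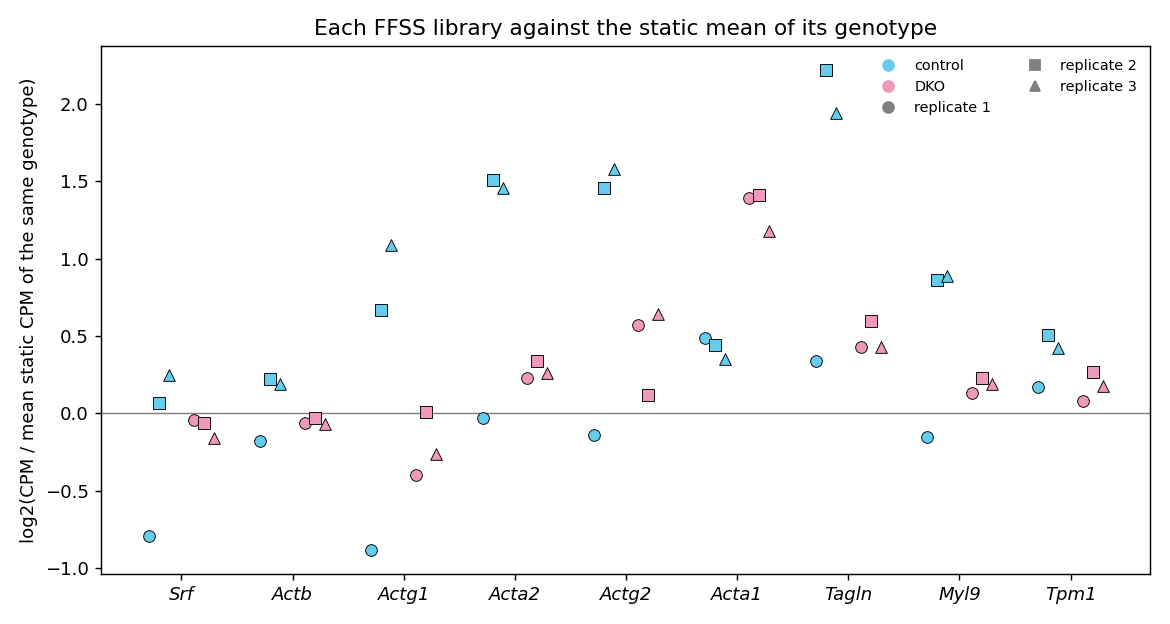
Log2 ratio of each FFSS library to the mean static level of its own genotype (vertical axis) for 9 genes, with control libraries in blue and DKO libraries in pink and the replicate shown by the symbol. For Acta2 the control libraries are at -0.03, 1.51 and 1.46 and the DKO libraries at 0.23, 0.34 and 0.26, whereas for Acta1 the DKO libraries, at 1.18 to 1.41, are above the control libraries, at 0.35 to 0.49.

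In DKO cells the same comparison gave 1 gene past the test. Acta1 rose from 2.42, 1.97 and 2.94 CPM in DKO static to 6.41, 6.48 and 5.54 CPM in DKO FFSS, that is from 44, 36 and 53 counts to 116, 109 and 99. The groups were well separated, and the log2 fold change was 1.33 ± 0.15 (2.51-fold, adjusted p = 0.00122). Genes that rose in DKO cells made up 0.376% of all tested genes, and those that also rose more than 2-fold 0.0134%, so Acta1 is 1 of 2 such genes.

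The other 8 tested genes did not pass in DKO cells. Acta2 had 152, 143 and 184 CPM in DKO static and 187, 202 and 191 CPM in DKO FFSS. Tagln had 54.4, 51.3 and 57.5 CPM in DKO static and 73.1, 82.7 and 73.5 CPM in DKO FFSS. Tpm1 had 350, 355 and 352 CPM in DKO static and 372, 426 and 400 CPM in DKO FFSS. The libraries of these 3 genes, like those of Acta1, did not overlap between the conditions, which held for 29.9% of all tested genes, but their log2 fold changes of 0.28 ± 0.33, 0.49 ± 0.39 and 0.18 ± 0.08 came with adjusted p of 0.813, 0.677 and 0.324. The test takes 1 estimate of the spread per gene from all 12 libraries. Their log2 fold changes passed when control FFSS replicate 1 was left out (adjusted p = 0.0244 for Acta2, 5.23e-05 for Tagln and 0.01 for Tpm1), as did that of Myl9 (0.19, adjusted p = 0.0443). Then 5 of 9 genes were higher, against 4.83% of all genes. Fitted on the 6 DKO libraries alone, Tagln (0.50, adjusted p = 1.95e-06), Tpm1 (0.19, adjusted p = 0.00587) and Acta1 passed, and 5.54% of all genes were higher in that fit. Srf had 93.9, 94.4 and 109 CPM in DKO static and 96.6, 95.1 and 88.9 CPM in DKO FFSS, and these values overlapped (log2 fold change -0.09 ± 0.21, adjusted p = 0.927). Cnn1 was counted 0, 3 and 2 times in DKO static, and 0 times in each DKO FFSS library, which allows up to 3 counts in each.

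Whether the response to FFSS differed between the genotypes was tested by the interaction, the FFSS effect in DKO cells minus that in control cells. Acta1 passed, with an FFSS effect larger in DKO cells by 0.90 ± 0.19 on the log2 scale (adjusted p = 0.0219), and 2.28% of all tested genes passed in this direction and 1.68% in the other. The call did not hold when control static replicate 1 or 3, DKO static replicate 1 or 2, or DKO FFSS replicate 1 or 2 was left out (adjusted p = 0.0624 to 0.0672, log2 differences 0.77 to 0.89). Without control FFSS replicate 1 it was 0.93 (adjusted p = 0.00027). For the other members the difference was below zero or at zero and did not pass, as for Tagln (-1.22 ± 0.54, adjusted p = 0.216) and Acta2 (-0.86 ± 0.47, adjusted p = 0.3). Without control FFSS replicate 1, these 8 genes all had a smaller FFSS effect in DKO cells that passed the test, from -0.25 for Srf (adjusted p = 0.0257) to -1.60 for Tagln (adjusted p = 2.18e-12), where 17.7% of all genes passed in this direction and 19.9% in the other. With the share of reads outside genes as a covariate the other members ran from -0.11 (Tagln) to 0.60 (Srf), and Srf passed with a larger FFSS effect in DKO cells (adjusted p = 0.00166), as did Acta1, against 3.75% of all genes.

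The comparison of DKO with control cells under static culture asks what the levels are before any shear. Here 6 of 9 tested genes were lower in DKO cells, the other 3 did not pass, and 5 of the 6 were lower by more than 2-fold. By the same rules 27.2% and 7.3% of all tested genes were lower, and 27% were higher at any fold. The median of the 9 was -1.15 on the log2 scale, compared with 0.01 over all tested genes. Acta1 fell most, from a mean of 14.6 ± 1.55 CPM in control to 2.45 ± 0.485 CPM in DKO cells (SD, n = 3), a log2 fold change of -2.57 ± 0.14 (SE, 5.94-fold lower, adjusted p = 3.87e-09). Myl9 fell from 168 ± 0.788 to 56.5 ± 6.28 CPM (-1.57 ± 0.23, adjusted p = 0.000248) and Tpm1 from 825 ± 3.62 to 352 ± 2.56 CPM (-1.23 ± 0.08, adjusted p = 1.48e-08). The smooth muscle actins fell to a like degree, Acta2 from 354 ± 23.2 to 160 ± 21.7 CPM (-1.15 ± 0.34, adjusted p = 0.0169) and Actg2 from 4.48 ± 0.194 to 1.97 ± 0.381 CPM (-1.19 ± 0.42, adjusted p = 0.031). Srf fell from 162 ± 7.16 to 99.2 ± 8.8 CPM (-0.70 ± 0.21, adjusted p = 0.0162).

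Actb did not differ beyond its spread between the genotypes under static culture, at 3259 ± 44.4 CPM in control and 3252 ± 135 CPM in DKO cells (log2 fold change 0 ± 0.09, adjusted p = 0.979). With the share of reads outside genes as a covariate it was lower in DKO cells (-0.19, adjusted p = 0.00532), and so were all 9 tested members, against 29.5% of all genes. Tagln was at 80.7 ± 2.54 and 54.4 ± 3.12 CPM, with no overlap between the groups. Its log2 fold change of -0.57 ± 0.39 did not pass (adjusted p = 0.251), and passed without control FFSS replicate 1 (adjusted p = 6.87e-08). Actg1 was counted 76 to 95 times in control and 69 to 78 times in DKO static libraries (adjusted p = 0.782). In 7 of the 9 tested genes the 2 groups did not overlap, and in all 7 the DKO libraries were the lower ones. The share of all tested genes without overlap was 69%. The Acta2 and Srf calls were lost without DKO static replicate 1 or 2 (adjusted p = 0.0518 and 0.0554 for Acta2, 0.0521 and 0.0513 for Srf). The Actg2 call was also lost without any single control static library (adjusted p = 0.0544 to 0.0939 over these 5 fits). By limma-voom and with no filter on low counts Actg2 did not pass either.

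Under FFSS, 7 of 9 genes were lower in DKO cells and the other 2 did not pass. Of the 7, 6 were lower by more than 2-fold, where 29.6% and 8.96% of all tested genes were lower and 27% higher at any fold. The median of the 9 was -1.67, against -0.05 over all tested genes. Acta2 fell from 777 ± 374 CPM in control FFSS to 193 ± 7.96 CPM in DKO FFSS (-2.01 ± 0.34, adjusted p = 0.000833), and Myl9 from 256 ± 90.4 to 64.3 ± 2.27 CPM (-1.99 ± 0.23, adjusted p = 4.6e-05). Actg2 fell from 9.92 ± 5.1 to 2.72 ± 0.503 CPM (-1.87 ± 0.37, adjusted p = 0.0012) and Tagln from 263 ± 143 to 76.4 ± 5.45 CPM (-1.78 ± 0.39, adjusted p = 0.00361). The wide SDs are those of the control group, in which replicate 1 was low, and even that library was above all DKO FFSS libraries for these 4 genes. Without it the log2 fold changes were -2.36 for Acta2, -2.26 for Myl9, -2.24 for Actg2 and -2.17 for Tagln.

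Acta1 fell under FFSS from 19.6 ± 1 to 6.14 ± 0.527 CPM (-1.67 ± 0.12, adjusted p = 6.95e-08) and Tpm1 from 1069 ± 125 to 399 ± 26.8 CPM (-1.42 ± 0.08, adjusted p = 3.77e-09). Srf fell from 152 ± 51.6 to 93.5 ± 4.12 CPM (-0.70 ± 0.21, adjusted p = 0.0163), but control FFSS replicate 1, at 93.6 CPM, was within the DKO range. With that library left out the log2 fold changes of Acta1, Tpm1 and Srf were -1.64, -1.51 and -0.95. The Srf call was lost without control FFSS replicate 2 or 3 or DKO FFSS replicate 3 (adjusted p = 0.055, 0.0623 and 0.0502), and in a fit of the 6 FFSS libraries alone (-0.68, adjusted p = 0.0724). Actb (-0.14 ± 0.09, adjusted p = 0.183) and Actg1 (-0.86 ± 0.36, adjusted p = 0.0645) did not pass. Both passed when control FFSS replicate 1 was left out (-0.26 for Actb and -1.24 for Actg1) and with library totals alone in place of TMM (-0.35, adjusted p = 0.0101, and -1.07, adjusted p = 0.0308), a scaling that moved the median of all genes to -0.246. Control and DKO libraries under FFSS did not overlap in 6 of the 9 genes, where 58.4% of all tested genes did not. The 2 genotype comparisons share no libraries with each other, while each FFSS effect shares libraries with both.

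**Figure D3:**
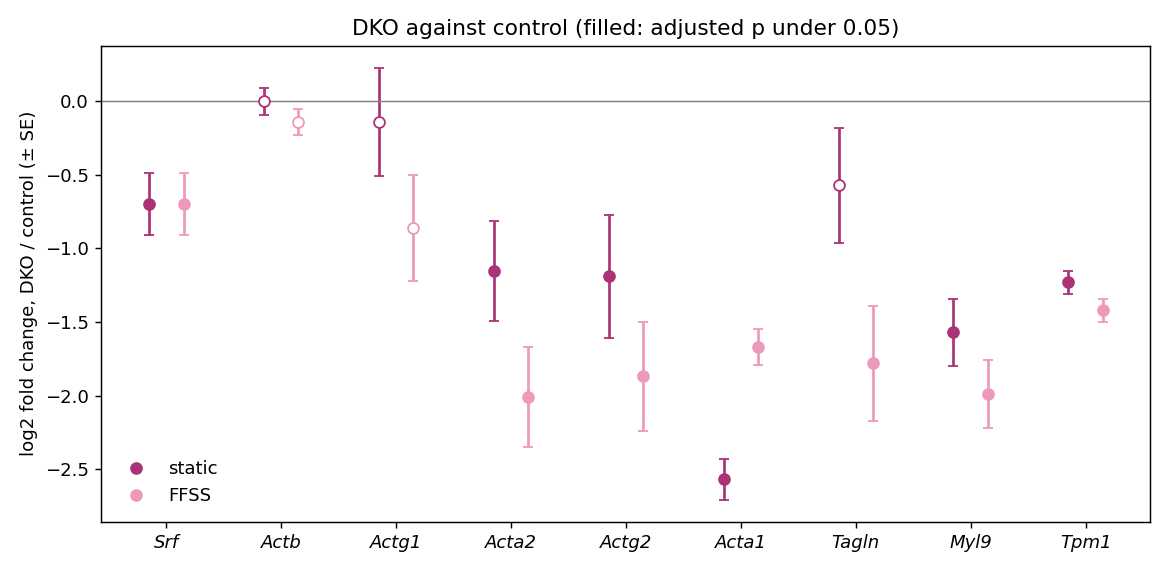
Log2 fold change of DKO over control (vertical axis, points with SE from the fit across all 12 libraries) for 9 genes under static culture (dark) and FFSS (light), with filled points for adjusted p under 0.05. Actb lies at 0 and -0.14, while Acta1 lies at -2.57 and -1.67, Acta2 at -1.15 and -2.01, and Tagln at -0.57 (open) and -1.78.

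The genotypes also differed in markers of cell type, which are given here as measured. Of 7 osteocyte markers, the summed level was 78.8 to 119 CPM in control static and 3691 to 3774 CPM in DKO static libraries, and 62.7 to 185 and 3716 to 4117 CPM under FFSS, with Fgf23 at 0 to 1 counts throughout. Sost had 28 to 236 counts in control static and 36753 to 38134 in DKO static, and Dmp1 444 to 714 and 10068 to 11027. Pdpn went the other way, from a mean of 28.4 CPM in control static to 5.11 CPM in DKO static, and from 43.9 to 7.16 CPM under FFSS. Of 5 chondrocyte markers, the sum was 78.3 to 103 CPM in control static and 2372 to 2962 CPM in DKO static (50.8 to 83.5 and 2015 to 2491 CPM under FFSS), in DKO cells mainly from Col2a1 and Col10a1. Acan did not follow the sum, at 5.96 ± 1.47 CPM in control static and 4.97 ± 1.4 CPM in DKO static (2.92 ± 2.45 and 3.39 ± 0.638 CPM under FFSS). Sums for 5 endothelial markers, of which Kdr was at 0 in control static, were 27.1 to 29 and 4.28 to 5.22 CPM (14 to 28.5 and 4.64 to 5.25 CPM under FFSS), carried by Vwf. Those for 5 macrophage markers, with Emr1 at 0 in both static groups, were 24 to 28.5 and 2.91 to 3.29 CPM (15.6 to 23.5 and 3.04 to 3.51 CPM under FFSS), carried by Cd68. Csf1r went the other way under static culture, with 5 to 8 counts in control and 11 to 15 in DKO libraries (12 to 24 and 7 to 12 under FFSS). The 7 smooth muscle markers summed to 92.9 to 97.9 CPM in control static and 96.4 to 100 CPM in DKO static, most of it Smtn, with Kcnmb1 at 0 and Myh11 at 1 to 5 counts, and to 70.7 to 94.7 and 85.7 to 92.9 CPM under FFSS. Within that sum, Synpo2 averaged 6.16 CPM in control static and 1.89 CPM in DKO static, Lmod1 3.06 and 1.55 CPM, and Des 7.23 and 9.22 CPM. Apart from Kcnmb1, the markers of this list also belong to the lists of cofactors and contractile genes given further on. Of 8 skeletal muscle markers 7 had no more than 3 counts in any library, with Myog at 0 in all 12, and their sum was 0.841 to 2.18 CPM. Of 7 cardiac markers 5 had no more than 3 counts, with Myl7 at 0, and their sum was 4.99 to 10.4 CPM. The part of these marker differences in the lower levels of the contractile genes in DKO cells was not tested, and in bulk RNA fewer cells of a type and less RNA per cell cannot be told apart.

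Within a library, the actin genes can be compared with each other without scaling between libraries. Reads of Acta1, Acta2 and Actg2 together made up 10.2%, 10.7% and 9.83% of the reads of the 5 actin genes in control static, and 11.4%, 21.5% and 21.3% in control FFSS. In DKO cells they made up 4.7%, 4.39% and 5.26% under static culture and 5.92%, 6.19% and 6.03% under FFSS. The 2 DKO groups did not overlap, and both were below every control library. Actg1 is undercounted, so these shares are of counted reads and not of actin transcripts. The ratio of Actb reads to Acta2 reads, not corrected for length, was 9.23 ± 0.506 in control static, 5.3 ± 2.63 in control FFSS, 20.5 ± 1.91 in DKO static and 16.3 ± 0.451 in DKO FFSS (SD, n = 3).

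The muscle actins did not move in step. Acta1 gave 4.02%, 3.25% and 4.5% of the reads of the 3 muscle-type actin genes in control static, and 5.54%, 1.89% and 1.84% in control FFSS. In DKO cells it gave 1.55%, 1.35% and 1.55% under static culture and 3.26%, 3.07% and 2.78% under FFSS. The Acta1 share was thus higher under FFSS in all DKO libraries and in control FFSS replicate 1, and lower in control FFSS replicates 2 and 3, in which Acta2 was high.

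**Figure D4:**
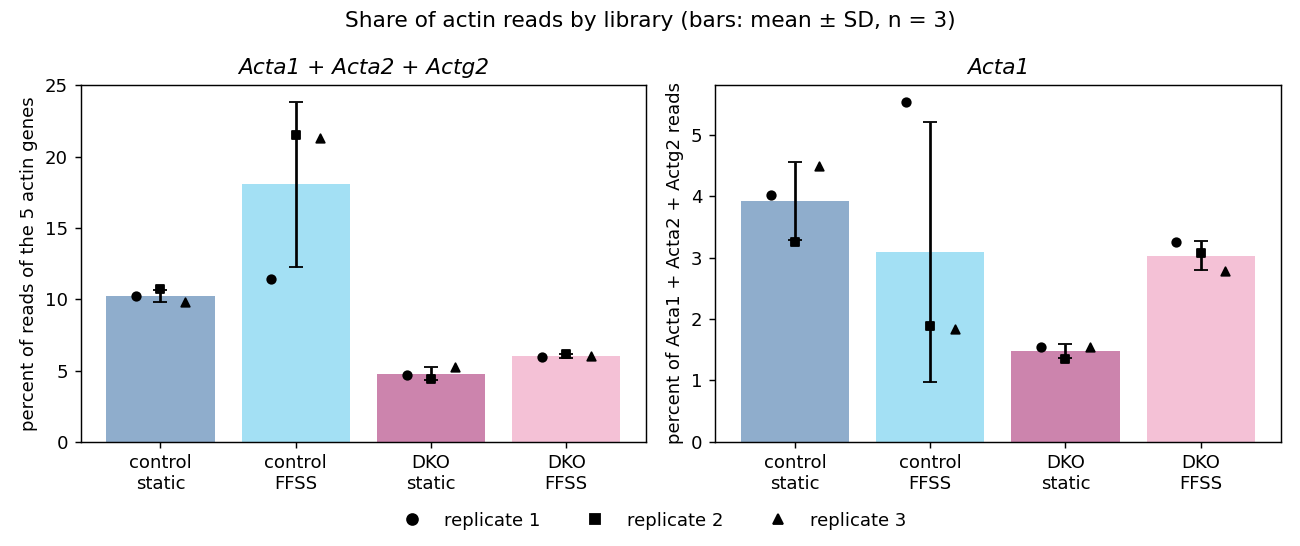
Share of Acta1, Acta2 and Actg2 reads in the reads of the 5 actin genes (left, percent) and share of Acta1 in the reads of those 3 genes (right, percent), with 1 symbol per library and bars for the mean ± SD of 3 libraries. On the left the control libraries run from 9.83% to 21.5% and the DKO libraries from 4.39% to 6.19%, and on the right control FFSS replicate 1 (5.54%) lies apart from replicates 2 and 3 (1.89% and 1.84%).

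Of 6 listed cofactors of SRF, 5 were tested, and Mkl1 (0.35 ± 0.09, adjusted p = 0.00951), Elk3 (0.48 ± 0.07, adjusted p = 0.000379) and Elk4 (0.29 ± 0.06, adjusted p = 0.00331) rose with FFSS in control cells, where 17.7% of all tested genes were higher and 18.1% lower. Mkl1 went from 76.6 ± 3.52 to 97.5 ± 15.3 CPM and Elk3 from 42.2 ± 2.11 to 58.8 ± 5.85 CPM. With FFSS in DKO cells 0 passed (0 also at an unadjusted p under 0.05, by DESeq2 and by limma-voom), where 130 of all 14904 tested genes passed by edgeR. For Elk3 the FFSS effect was smaller in DKO cells (interaction -0.53 ± 0.1, adjusted p = 0.0138). Under static culture Elk3 was higher in DKO cells (0.43 ± 0.07), while Mkl2, which encodes MRTF-B, was lower (-0.30 ± 0.07, adjusted p = 0.0024) and Elk1 was lower (-0.19 ± 0.05), where 27% of all tested genes were higher and 27.2% lower. Under FFSS 4 cofactors were lower in DKO cells, by 0.32 (Mkl2) or less on the log2 scale, against 29.6% of all tested genes lower and 27% higher. Leaving out control FFSS replicate 1 gave 3 cofactors higher with FFSS in control cells (26.7% of all genes) and 3 with a smaller FFSS effect in DKO cells (17.7%). Myocd, the muscle-specific myocardin, had 0 to 1 counts in control libraries, 1 to 3 in DKO static and 4 to 11 in DKO FFSS, and was not tested.

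Of a wider list of 22 contractile and adhesion targets of MRTF and SRF, 21 were tested. In DKO cells 13 were lower and 2 higher under static culture, and 16 were lower and 2 higher under FFSS, with medians of -0.61 and -0.71 on the log2 scale, where 27.2% and 29.6% of all tested genes were lower and 27% higher in either condition. Under FFSS 17 were lower and 2 higher without control FFSS replicate 1, against 34% and 31% of all genes. Under static culture the lowest were Fhl1, a LIM-domain protein of muscle (116 ± 2.7 CPM in control static and 22.6 ± 2.75 CPM in DKO static, -2.36 ± 0.25), Synpo2 (-1.70 ± 0.27) and Vcl, which encodes the adhesion protein vinculin (-1.34 ± 0.16). Those higher were Cald1 (0.58 ± 0.13) and the myosin light chain kinase gene Mylk (0.52 ± 0.06). Under FFSS the 2 higher genes were Des (0.69 ± 0.19), which encodes desmin, and Mylk (0.39 ± 0.06). With FFSS in control cells Zyx, which encodes zyxin (0.85 ± 0.28, adjusted p = 0.0405), Flna, which encodes the actin crosslinker filamin A (0.59 ± 0.17), and Cald1 (0.39 ± 0.13) rose, where 17.7% of all tested genes were higher. When control FFSS replicate 1 was left out, 14 were higher (26.7% of all genes) and 2 lower (4235 of 14978 genes). With FFSS in DKO cells 0 passed by edgeR, DESeq2 or limma-voom, where 130 of all 14904 tested genes passed by edgeR, and 3 had an unadjusted p under 0.05. Without that library 4 were higher (4.83% of all genes) and 1 lower (848 of 14978 genes).

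Of 18 genes of actin filament turnover and monomer binding, 17 were matched and tested. With FFSS in control cells 4 were higher and 1 lower, where 17.7% of all tested genes were higher and 18.1% lower. Without control FFSS replicate 1, 5 were higher (26.7% of all genes) and 4 lower (4235 of 14978 genes). The highest was Tpm3 (0.43 ± 0.07), and the lower one was the filament-severing gelsolin gene Gsn (-0.99 ± 0.28, from 834 ± 1.33 to 421 ± 219 CPM). In DKO cells 4 were higher and 7 lower under static culture, and 5 and 9 under FFSS (6 and 9 without that library, against 31% and 34% of all genes), where 27% of all tested genes were higher in either condition and 27.2% and 29.6% lower. Pfn2, which encodes a profilin, was lower in both (-0.62 ± 0.06 and -1.03 ± 0.06), and its FFSS effect was smaller in DKO cells (interaction -0.40 ± 0.08, adjusted p = 0.0171). Myl12b was higher in both (0.57 ± 0.07 and 0.72 ± 0.07).

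Of 9 immediate early targets of the ternary complex factors, 6 rose in control cells with FFSS, against 17.7% of all tested genes. Without control FFSS replicate 1, 7 were higher (26.7% of all genes) and 1 lower (4235 of 14978 genes). The highest was Fosb (4.41 ± 0.0731 to 11 ± 2.44 CPM, 1.32 ± 0.17, adjusted p = 0.000131). Junb (0.55 ± 0.09, adjusted p = 0.0139), Egr1 (0.47 ± 0.1, adjusted p = 0.0414) and Ier2 (0.46 ± 0.07, adjusted p = 0.0067) rose with FFSS in DKO cells, where 0.376% of all tested genes did, and without that library 6 of the 9 were higher there, against 4.83% of all genes. The FFSS effect on Fosb was smaller in DKO cells (interaction -1.13 ± 0.29, adjusted p = 0.0434), a call that limma-voom did not make. Under static culture 5 of the 9 were lower in DKO cells and 2 higher, with a median of -0.45 on the log2 scale. Over all tested genes 27.2% were lower and 27% higher, and the median was 0.01. Mcl1 (-1.11 ± 0.05), Fosb (-0.97 ± 0.21) and Ier2 (-0.66 ± 0.07) were the lowest, and Egr3 (1.47 ± 0.13) and Nr4a1 (1.33 ± 0.12) were higher.

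The genes whose profile over the 12 libraries was most like that of a member were found by the root mean square difference of log2 CPM, each gene centred on its own mean, among 11403 other genes. Nearest to Acta2 were Zyx at 0.12, Pappa at 0.16 and Chrnb1 at 0.18, where the profile of Acta2 itself had a root mean square of 0.91. Nearest to Tagln were Hbegf at 0.16, Ccl2 at 0.22 and Nuak2 at 0.22, and nearest to Srf were Maff at 0.08, Jub at 0.12 and Carm1 at 0.12. Acta1 had Wnt11 at 0.19, then Tnfaip6 at 0.35 and Dyrk3 at 0.37, with a root mean square of its own of 1.16. Within the 9 tested members, Acta2 and Actg2 were each other's nearest at 0.17, followed by Myl9 and Acta2 at 0.24, while the nearest member to Acta1 was Myl9 at 0.52. These values describe 12 libraries in 4 groups and carry no test.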

How the data were processed

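The authors extracted total RNA, sequenced mRNA from it on the BGISEQ-500 (50-base single reads), aligned reads with STAR to mm9 with Ensembl annotation, and deposited 1 table of raw HTSeq counts per library, with no normalization and, as the tables show, no pooling. The HTSeq version used is not given consistently in the sources. Reads with more than 1 position (14.1% to 16.6% of reads) are not in the gene counts. Lines that name no gene, 22.5% to 25.9% of reads, were kept out of totals and tests.

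Gene symbols came from Ensembl tables (98.9% of identifiers matched). As in the study, genes with 0 counts in 2 or more libraries were removed, leaving 14904. edgeR 4.0.16 (TMM scaling, quasi-likelihood test, 1 mean per group over all 12 libraries, no block) gave 5 contrasts, with Benjamini-Hochberg adjustment over all tested genes; a 2-fold limit was reported beside it. The pipeline was tested on simulated data. Alternatives used DESeq2 1.42.0, limma 3.58.1 (voom), other scalings and filters, a replicate block, the share of reads outside genes as a covariate, and leaving out each library. The named genes are all members, all SRF cofactors, up to 3 highest and 3 lowest passing genes per contrast from the other lists, and the 3 nearest profiles for 4 members; not all of those from the lists are printed, and 1 pathway list is not reported here. Members and lists were chosen with earlier results of these data known.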

Additional observations from a re-analysis of the deposited data

Results flagged for a closer look

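The FFSS effect differed between genotypes, by the interaction term of edgeR's quasi-likelihood fit, for 1 of the SRF target genes and 4 other genes named in the report. Acta1 had the larger effect in DKO cells, by 0.90 on the log2 scale (adjusted p = 0.0219), and all 3 DKO FFSS libraries were above the DKO static ones, as all 3 control FFSS libraries were above the control static ones. This is a difference of ratios: the mean went from 2.45 to 6.14 CPM in DKO cells and from 14.6 to 19.6 CPM in control cells. Of 21 alternative fits, 6 lost this call. Hdac5 differed by 0.85 (adjusted p = 0.00152), with a fall of 0.71 in control cells and a difference of 0.14 that did not pass in DKO cells. Elk3 differed by -0.53, Pfn2 by -0.40 and Fosb by -1.13.

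The share of uniquely aligned reads outside annotated genes was higher under FFSS than in the static libraries of the same genotype. Its mean was 8.61% in control FFSS, against 5.29% in control static, and 8.43% in DKO FFSS, against 7.31% in DKO static. No control FFSS library overlapped the static range, and replicate 1 was the lowest of the 3 at 6.05%.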

How the results depend on the processing

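Of 1308 alternative values of the fold changes of the members and the 2 targeted genes, 1183 kept their direction and their side of the threshold, 47 no longer passed, 45 passed in addition and 33 changed sign, among them values near 0. With the share of reads outside genes as a covariate, the FFSS effect in control cells was -0.26 for Acta2, -0.23 for Actb, -1.18 for Actg1, -0.40 for Actg2, -0.31 for Myl9 and -0.94 for Srf (-0.09 without the covariate). In DKO cells it was -0.14 for Acta2, -0.10 for Myl9 and 0.11 for the Hdac4 identifier ENSMUSG00000073617, and the interaction was 0.12 for Acta2, 0.08 for Actb, 0.47 for Actg1, 0.40 for Actg2, 0.21 for Myl9 and 0.60 for Srf (adjusted p = 0.00166). Under this covariate 1 member passed beyond 2-fold with FFSS in control cells (Actg1, lower), as did 125 of all 14904 tested genes in that direction. With FFSS in DKO cells 4 members passed (1 higher and 3 lower), against 750 of all genes higher and 734 lower. In the interaction 2 members passed (both higher), against 559 of all genes higher and 313 lower. In DKO static 8 members were more than 2-fold lower, against 1270 of all genes. Srf was 0.16 with FFSS in control cells and -0.25 in the interaction without control FFSS replicate 1, and leaving out each library gave -0.29 to 0.16 and -0.25 to 0.21. The Srf values were 0.05 and -0.12 with library totals alone, and the interaction was -0.02 with upper-quartile factors and -0.01 with another filter. Leaving out each library gave -0.04 to 0.02 for Actb between genotypes in static culture (0.00 with upper-quartile factors and both other filters, but -0.19, adjusted p = 0.00532, with the covariate). For the Hdac4 identifier ENSMUSG00000073617 it gave -0.15 to 0.20 (FFSS in control cells) and -0.25 to 0.11 (interaction), and for ENSMUSG00000026313 -0.23 to 0.01 (FFSS in DKO cells). The covariate varied within groups mainly in control FFSS and differed between the groups compared. A fit with it therefore cannot separate it from the effects of FFSS or genotype. The cause of these shifts was not tested. With no filter on low counts, 3 members passed with FFSS in control cells and 1 beyond 2-fold, against 4734 and 837 of 24360 genes. With the 6 libraries of the comparison, 2 passed and 0 beyond 2-fold in control cells, against 2373 and 438 of 16166 genes. In DKO cells 3 passed in such a fit, against 1787 of 15924 genes. With limma-voom 1 passed beyond 2-fold in control cells, against 854 of 14904 genes. With no filter Cnn1 had an adjusted p of 0.00513 between DKO and control under FFSS, and with 6 libraries 0.0832 with FFSS in control cells.

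Leaving out each library in turn gave 2 to 9 members past the test with FFSS in control cells (1 to 3 beyond 2-fold), 1 to 5 in DKO cells, 0 to 9 in the interaction (0 to 4 beyond 2-fold), 3 to 7 between genotypes in static culture (3 to 5 beyond 2-fold) and 6 to 9 under FFSS (6 to 7 beyond 2-fold). The highest counts at any fold came without control FFSS replicate 1. Over all genes, leaving out each library gave 3634 to 8235 past the test with FFSS in control cells and 13 to 1571 in DKO cells. Without control FFSS replicate 1 the all-gene count went from 591 to 5634 in the interaction. It went from 8084 to 9559 between genotypes in static culture and from 8438 to 9733 under FFSS. The replicate numbers did not pair the samples (mean correlation of deviations 0.00225 over 18 pairs), and with the replicate block 5, 1, 1, 6 and 7 members passed in the 5 contrasts, as without it. Over all genes, 5338 passed with FFSS in control cells, 8235 without control FFSS replicate 1 and 2373 with 6 libraries, and 2282 did with the covariate. In DKO cells 130 passed, with 70 under the block, 336 by DESeq2, 1787 with 6 libraries, 13 without DKO FFSS replicate 2 and 1571 without control FFSS replicate 1. With library totals alone the median of all genes moved to 0.131 (FFSS in control), -0.13 (interaction) and -0.246 (genotype under FFSS). Cnn1 had 0 to 7 counts, too few for a fold change, and most windows of 50 bases of Actg1 occur elsewhere in the genome.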
